A study of Mus musculus with 4 samples.

Results

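A total of 23577 autosomal regions were called as accessible in the fibro/adipogenic progenitors (FAPs) of old mdx mice given trichostatin A (TSA) and in none of the other 3 libraries of the series. They were obtained by merging all regions of the 4 library lists that touched or overlapped and keeping the merged autosomal regions that held calls of the old TSA library alone. They were 23577 of 163967 merged autosomal regions, and 28.0% of the 84248 that held an old TSA call (95% exact binomial interval 27.7 to 28.3%). Intervals are exact (Clopper-Pearson). They take every region as independent and allow for counting error alone. The number of members was 35988 without the old control list in the rule, and 11936 when every list was limited to its regions at or above its median width. Membership was chosen by the calls themselves, so the number of members and their absence from the other lists are a description and not a result.

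All 4 groups were C57BL/6 mdx mice, which lack dystrophin, so the controls carry the mutation too and no wild-type mouse enters. The young control and old control mice had received saline, and the young TSA and old TSA mice TSA in saline at 0.5 mg per kg per day, injected daily for 15 days. The ages are labelled only as young and old, and each group is 1 library of FAPs sorted from hind limb muscle by the marker Sca-1, with cells that carried Ter119, CD45, CD31 or α7 integrin gated out. Whether animals were pooled is not stated, and the sorted cell type was not checked against marker genes here, since no gene was assigned to the regions.

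FAPs are resident mesenchymal cells of muscle. They support regeneration after injury and, in diseased muscle, can turn into the fibroblasts and fat cells that replace it. TSA blocks histone deacetylases, enzymes that remove acetyl groups from histone tails, and acetylated chromatin is generally more open. In NA-seq a restriction enzyme is applied to intact nuclei and cuts where chromatin is accessible, so a call marks a stretch of open chromatin that holds cutting sites. The lists give positions without counts, heights or scores, and depth is unknown. A region missing from a list was not called there and is not shown to be closed. With 1 library per group no difference has an error between animals, and no test between libraries was possible. Counts of autosomes are a description within the same lists, and the autosomes are not replicates. Coordinates are of the mouse build mm9, and no gene was assigned to them.

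The members covered 33.6 Mb, or 22.8% of the 147 Mb of autosomal sequence in the old TSA list. Every member held exactly 1 listed region, so none was assembled from neighbouring calls. The same rule applied to the other libraries gave 32787 regions called only in the old control (35.0% of its merged autosomal regions), 18280 only in young TSA (23.5%) and 10977 only in the young control (26.0%). The old TSA share of 28.0% thus lay between those of the old control and the young control. The lists differ in length, with 43335 regions for the young control, 80122 for young TSA, 97139 for the old control and 87416 for old TSA.

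The members were narrow. Their median width was 1300 bp, with 1100 and 1800 bp at the 25th and 75th percentiles, and the widest spanned 4500 bp. The old TSA regions that were also called in another library had a median of 1900 bp, measured on the old TSA call itself and not on the merged region. Of the members, 5027 (21.3%) had the smallest width in any list, 1000 bp, against 7.43% of the shared old TSA regions. Only 627 members (2.66%) were wider than 1900 bp, against 20.4% of the shared regions.

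A pair of peaks was seen in the widths, at 1000 bp and at 1900 bp, the latter being the width of 4376 members (18.6%). Between them the number of members fell steadily from 13.5% at 1100 bp to 4.56% at 1700 bp. Regions called only in the old control had a similar profile with a median of 1400 bp and 27.2% at 1900 bp or wider (26.8 to 27.7%), against 21.2% of the members (20.7 to 21.7%). For regions called only in young TSA and only in the young control these shares were 22.3% and 14.9%. All 4 sets called in 1 library were thus narrower than the shared old TSA regions, and the members were nearest to the young TSA set in this share.

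Seen from the old TSA list, the share of calls that were members fell with width at every step. Of the 9532 old TSA regions of 1000 bp, 52.7% were members. The share was 39.0% at 1400 bp, 16.7% at 1900 bp and 4.81% among the 13031 regions of 2000 bp or wider. A wider region also has more sequence on which to meet a call of another library, and how much of this fall follows from the rule was not tested.

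The widest members were scattered over 8 chromosomes. The widest, chr3:106983901-106988400, spanned 4500 bp and lay 1.6 kb from a region called in young TSA and the old control. The second, chr5:38629401-38633700, spanned 4300 bp and had another member 0.20 kb away, the closest neighbour among the 10 widest, while the nearest region of another library was a young control call at 0.80 kb. Next came chr5:117022801-117026900, which spanned 4100 bp and lay 3.9 kb from a region of both old libraries. The regions chr1:43305501-43309500 and chr9:74180601-74184500 spanned 4000 and 3900 bp, and the remaining 5 of the 10 widest spanned 3800 bp each.

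These wide members had different surroundings. Within 50 kb of chr4:140972701-140976500 lay 19 regions with calls of another library, the highest number among the 10. Around chr13:78428401-78432200 there were 2 such regions, and the nearest region called in all 4 libraries was 204 kb away. The region chr5:34116601-34120400 lay 4.0 kb from a region called in all 4 libraries, which was also its nearest neighbour of any other library.

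Distance to shared regions was measured next, from edge to edge, first to the nearest merged region that held a call of any other library. The median of the members was 4.5 kb, with 0.60 and 21.3 kb at the 10th and 90th percentiles. The medians were 5.2 kb for regions called only in the old control, 4.1 kb for the young control and 3.5 kb for young TSA. Old TSA regions that were shared with other libraries lay a median of 3.1 kb from the next such region. The median of the members was 7.2 kb without the old control list and 7.7 kb when every list was limited to its regions at or above its median width. The median number of such regions within 50 kb of a member was 7, against 6 for regions called only in the old control and 9 for shared old TSA regions.

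At the boundary of the rule, 399 members lay 100 bp from a region with a call of another library, the smallest gap that the 100 bp grid of the coordinates allows. Of the 22718 regions called in old TSA and 1 other library, 126 touched without sharing a base pair and 147 shared 100 bp. Both the members at 100 bp and the regions sharing 100 bp had a median old TSA width of 1400 bp. A gap of 500 bp or less separated 2015 members (8.55%) from another library. The numbers at gaps of 100 to 500 bp ranged from 390 to 431 per step, so within this range members did not pile up at the smallest gap. Larger gaps were not counted by step.

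The nearest region of another library was called in the old control for 68.5% of the members (67.9 to 69.1%), in young TSA for 51.7% (51.0 to 52.3%) and in the young control for 26.6% (26.0 to 27.2%). Among all merged regions other than members, 66.6%, 55.4% and 30.0% held calls of these libraries. The old control was thus slightly more frequent next to members than in the list as a whole, and both young libraries were less frequent. In 6136 cases (26.0%) the nearest region had been called in the old control alone, a pattern that made up 23.4% of the regions with another library.

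Distance was then measured to regions called in all 4 libraries, the constitutive part of the accessible chromatin. These make up 10.4% of the regions with a call of another library, so they cannot be nearer than the nearest such region. The median distance from a member to the nearest region called in all 4 libraries was 64.3 kb. It was 23.9 kb without the young control list, to regions called in all 3 remaining libraries, and 116 kb when every list was limited to its regions at or above its median width. Old TSA regions shared with 1 or 2 other libraries lay at a median of 41.5 kb, and the median of the members was higher on 19 of 19 autosomes, by a ratio of 1.22 to 1.71. Regions called only in young TSA lay at 41.9 kb, those only in the young control at 54.4 kb and those only in the old control at 72.1 kb. The members lay farther than the young TSA set on 19 autosomes and nearer than the old control set on 18.

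Of the members, 9176 (38.9%, 38.3 to 39.5%) lay more than 100 kb from any region called in all 4 libraries, against 28.8% (28.4 to 29.2%) of the old TSA regions shared with 1 or 2 libraries. Beyond 500 kb lay 2085 members (8.84%). At the other end, 3388 members (14.4%) had a constitutive region within 10 kb, against 20.2% of those shared with 1 or 2 libraries and 20.7% of the regions called only in young TSA.

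**Figure D1:**
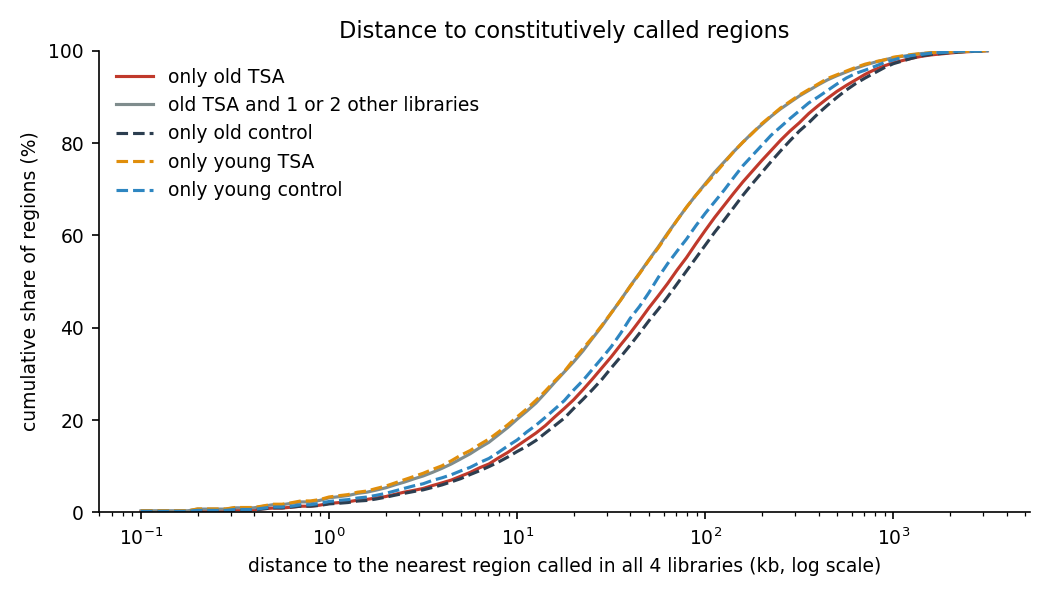
Cumulative share of regions (y axis, %) by distance to the nearest region called in all 4 libraries (x axis, kb, log scale), for the 4 sets called in 1 library and for old TSA regions shared with 1 or 2 others. The curve of the members, with a median of 64.3 kb, runs between those of the young control (54.4 kb) and old control (72.1 kb) sets from 1 to 1000 kb and slightly below both at some shorter and longer distances, and the young TSA curve runs close to that of the shared old TSA regions.

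The share of old TSA regions that were members rose with this distance. Membership and a call in all 4 libraries are read from the same lists, and how much of this rise follows from the rule was not tested. Leaving out regions called in all 4 libraries, 26.7% (25.9 to 27.5%) of the old TSA regions within 10 kb of a constitutive region were members. The share rose to 30.8% at 10 to 50 kb, 34.2% at 50 to 100 kb and 39.7% at 100 to 500 kb, and reached 45.5% (44.0 to 47.0%) at 500 kb and over. It was higher beyond 100 kb than within 10 kb on 19 of 19 autosomes.

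The same calculation for the other libraries gave rises of unequal size. The share called only in the old control went from 32.0% within 10 kb to 55.8% at 500 kb and over, and that of the young control from 32.5 to 57.3%. For young TSA it went from 27.2 to 32.7%, and was higher beyond 100 kb than within 10 kb on 16 of 19 autosomes. The old TSA library thus started at the level of young TSA near constitutive regions and ended between young TSA and both controls. The shares refer to lists of different length, and the differences between libraries were not tested.

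**Figure D2:**
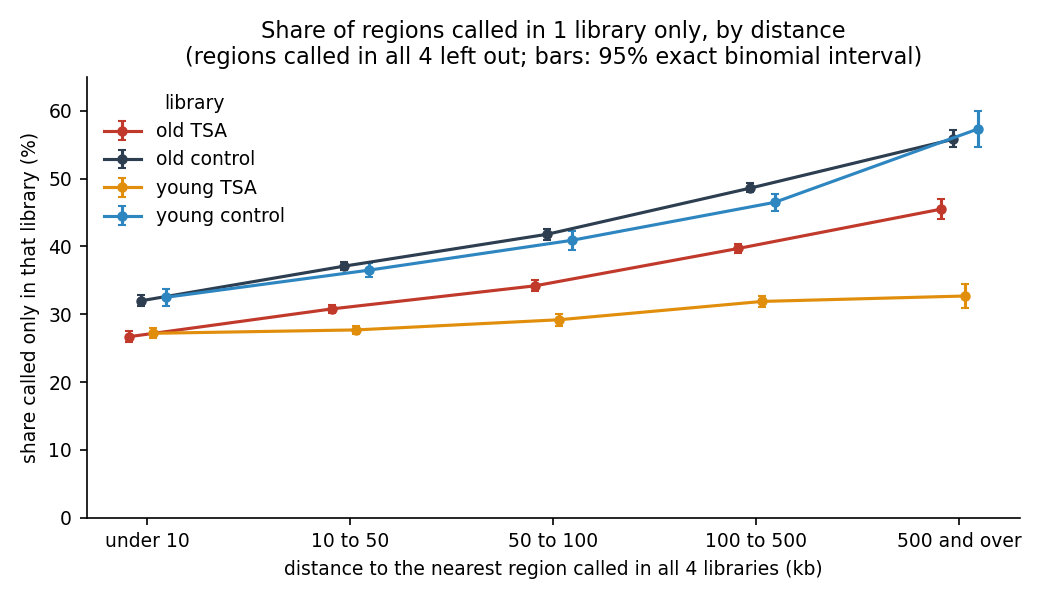
Share of each library's regions that were called in that library only (y axis, %) by distance to the nearest region called in all 4 libraries (x axis, kb), with regions called in all 4 left out and 95% exact binomial intervals as bars. Old TSA rises from 26.7 to 45.5%, both controls rise to 55.8 and 57.3%, and young TSA ends at 32.7%.

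Width did not follow this distance. The median width of the members was 1300 bp in each of the 5 distance classes, and between 20.3 and 22.3% of them were 1900 bp or wider.

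The most isolated member was chr7:9053201-9054200, a region of 1000 bp that lay 1527 kb from the nearest region of another library and 1653 kb from the next member. The next was chr5:95320801-95322500, at 499 kb from its nearest other region, which was called in all 4 libraries. The regions chr14:43656601-43658700, chr4:60413101-60414100 and chr7:33943401-33945300 followed at 339, 318 and 287 kb. None of these 5 was in the authors' list of regions higher in old TSA. Of all members 6.10% were in that list, so nothing is read from this count. In all, 405 members (1.72%) had no region of another library within 50 kb, against 979 regions (2.99%) called only in the old control.

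Members also lay near each other. The median distance to the next member was 30.5 kb, and 15755 members (66.8%, 66.2 to 67.4%) had another within 50 kb. This share rises with the number of regions in a set, and was 77.0% for the 32787 regions called only in the old control, 63.7% for the 18280 of young TSA and 44.1% for the 10977 of the young control. The order of the 4 shares is that of the 4 numbers.

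Among consecutive merged regions, 71.7% of the members had no member on either side. A member stood directly next to 1 or both neighbours of its own kind in 28.3% of cases. Single members numbered 16916, and there were 2541 runs of 2, 408 of 3, 74 of 4, 7 of 5 and 4 of 6 members without any region of another pattern between them. Members made up 15.4% of the regions flanking a member and 14.4% of all merged autosomal regions.

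The tightest of the longest runs lay at chr9:45533701-45561000, where 6 members followed each other within 27300 bp. Of these, 2 were in the authors' list of regions higher in old TSA, which 6.10% of all members overlapped, and nothing is read from this count. The other runs of 6 were at chr10:32026201-32090400, chr13:100734001-100781800 and chr15:62653801-62732300. The run on chromosome 15 lay 493 kb from the nearest region called in all 4 libraries, while that on chromosome 9 lay 45.0 kb away. The first run of 5, at chr3:132633101-132678700, lay 19.5 kb from one.

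Members were spread over nearly the whole of the called genome. Of 2412 windows of 1 Mb that held any merged region, 2394 held a member, with a median of 9 and 4 and 16 at the 10th and 90th percentiles. The highest number, 29, was found between 122000001 and 123000000 of chromosome 8. That window also held 29 regions called in all 4 libraries and 122 old TSA regions, so its member share of 23.8% was below the 28.0% of all autosomes. The windows from 49000001 to 50000000 of chromosome 17 and from 73000001 to 74000000 of chromosome 13 followed with 28 and 27 members. The former held 28 regions called only in the old control as well but 1 called only in the young control. None of its members was in the list of regions higher in old TSA, which 6.10% of all members overlapped, and nothing is read from this. The windows from 10000001 to 11000000 of chromosome 16 and from 51000001 to 52000000 of chromosome 7 held 26 and 25 members.

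There were 360 windows without a region called in all 4 libraries, and they held 2194 members (9.31%). Of the old TSA regions in these windows 44.9% were members. The windows were chosen to hold no region called in all 4 libraries, while the member share of 28.0% over all autosomes counts such regions. The 44.9% is therefore not comparable with the 28.0%. The same windows held 10.7% of the regions called only in the old control, 7.45% of those of the young control, 5.59% of those of young TSA and 4.45% of the shared old TSA regions. The last share is taken over 60671 regions, which include the 14668 called in all 4 libraries. Those cannot lie in these windows, so the 4.45% is not comparable with the other shares.

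By chromosome, the member share of the old TSA regions ranged from 25.4% on chromosome 4 (24.3 to 26.5%) to 31.4% on chromosome 14 (29.9 to 33.0%). Chromosomes 18 and 3 followed chromosome 14 with 31.1% and 30.3%, and chromosomes 5 and 7 were next above chromosome 4 with 25.8% and 26.0%. The intervals of these neighbours overlapped. On each of the 19 autosomes the member share was below the share of old control regions called only there and above the corresponding share of young TSA.

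Members were more evenly spread over chromosomes than the regions shared with other libraries. They numbered from 8.53 per Mb on chromosome 12 to 10.9 per Mb on chromosome 11, a ratio of 1.28. Shared old TSA regions ranged from 19.9 per Mb on chromosome 14 to 29.9 per Mb on chromosome 7, a ratio of 1.50. Densities per Mb were not computed for regions called only in another library, so the evenness is not shown to be particular to the members. The densities of members and shared old TSA regions varied together (Spearman's rho 0.784 over 19 autosomes, which share a library and differ in base composition and gene density, given as a description).

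**Figure D3:**
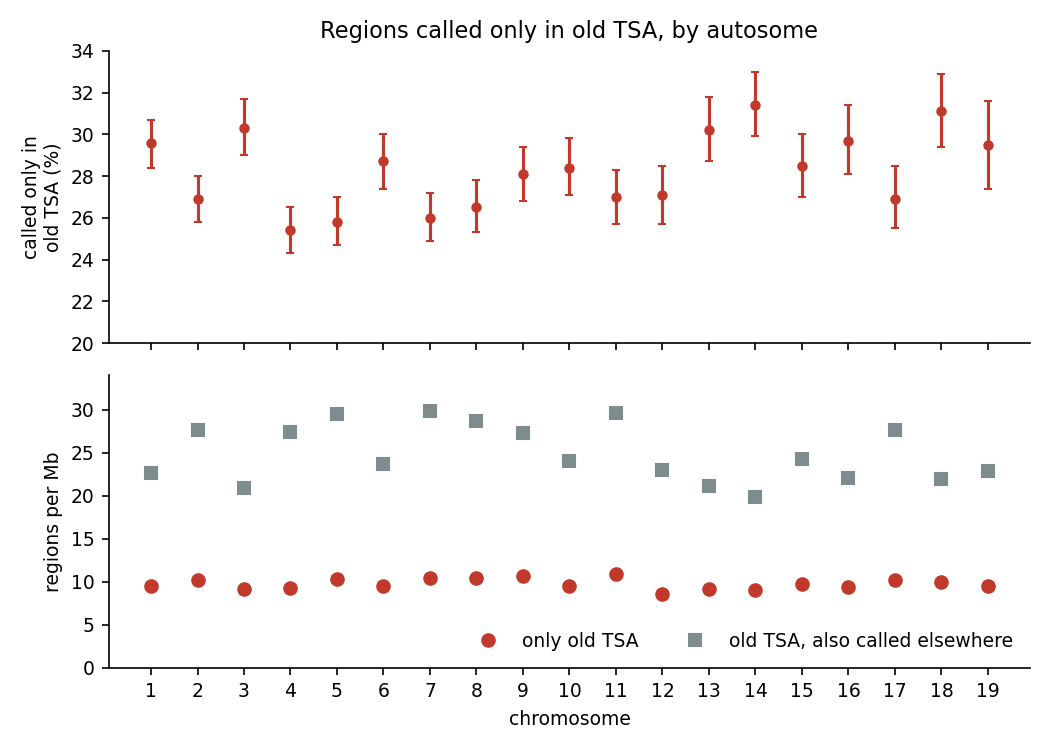
Top, share of old TSA regions called only in old TSA (y axis, %, from 20%) with 95% exact binomial intervals, by autosome (x axis). Bottom, members and shared old TSA regions per Mb of called span (y axis), where members stay between 8.53 and 10.9 per Mb and shared regions range from 19.9 to 29.9.

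Along the chromosomes the members were less concentrated at the far end than the shared regions on 17 of 19 autosomes. The exceptions were chromosome 17 (18.8% against 18.2% in the last 20% of its span) and chromosome 19 (23.2% against 20.1%). Mouse chromosomes carry the centromere at the end where coordinates begin. The last 20% of the called span, away from the centromere, held 23.9% of the members (23.4 to 24.4%) and 29.0% of the shared old TSA regions (28.6 to 29.3%). The corresponding share was 22.8% for regions called only in the old control, 23.1% for the young control and 26.2% for young TSA. Among single autosomes the share of the members ranged from 18.6% on chromosome 14 to 29.4% on chromosome 12. The last 10% alone held 12.2% of the members and 16.0% of the shared regions.

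The authors also deposited, for each age, lists of regions that differed between the TSA and control libraries. The list of regions higher in old TSA rests on the contrast of old TSA with old control that the choice of members used as well. Its overlap with the members is therefore a description, and nothing is read from the count. Of the members, 1438 (6.10%, 5.80 to 6.41%) overlapped this list by at least 1 bp. Among all merged autosomal regions called in either old library the share was 2.62%, and among those called in old TSA 4.08%. With every list limited to its regions at or above its median width, 9.88% of the members were listed. The share over all regions was not computed under this limit, so the 9.88% is not comparable with the 2.62% or 4.08%. Most members, 22139, were thus not among the regions that the authors listed as higher in old TSA. From the other side, 1441 of the 3446 autosomal regions of the list (41.8%, 40.2 to 43.5%) overlapped a member. For the old control, 49.6% of the 4211 regions listed as higher there overlapped one called only there. In the young lists this share was 10.7% of the 8298 regions higher in young TSA and 62.9% of the 458 higher in the young control.

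Old TSA regions that were also absent from the old control list but called in a young library were listed in 5.85 to 7.47% of cases. The share was 7.47% (6.92 to 8.05%) for those shared with young TSA, above that of the members, 5.85% (4.92 to 6.89%) for those shared with the young control and 7.21% (6.35 to 8.14%) for those shared with both. These shares are taken over all widths, and the overlap is that of the whole merged region. Old TSA regions that were also called in the old control were listed in 1.13 to 2.97% of cases, depending on the young libraries.

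Listed members were wider than the others. The median width of the 1438 was 1800 bp against 1300 bp for the remaining members, and 45.8% against 19.6% were 1900 bp or wider. The listed share rose from 2.35% of the members of 1000 bp (1.95 to 2.80%) to 5.14% at 1400 bp, 12.3% at 1900 bp (11.3 to 13.3%) and 19.5% at 2000 bp or wider (16.4 to 22.8%). Members of 1900 bp or wider were listed more often than those of 1000 bp on 19 of 19 autosomes. A wider member also has more sequence on which to meet a listed region, and its part in this rise was not tested. Of the listed regions on members, 1067 (74.0%) lay wholly inside the member and 243 (16.9%) had its exact start and end.

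At equal width of the old TSA call the members were listed more often than regions shared with young libraries alone at each width from 1000 to 1900 bp. Listing was counted over the whole merged region, which for shared regions also holds the young calls. Regions shared with young TSA alone were listed in 7.20% of cases at 1700 bp (4.87 to 10.2%), against 7.06% of the members. At the other widths up to 1900 bp their share was below that of the members. The intervals of the members and of the regions shared with young libraries alone overlapped at some of these widths. The order was reversed at 2000 bp or wider. At 1000 bp, 2.35% of the members and 0.724% (0.362 to 1.29%) of the regions shared with a young library but not with the old control were listed. At 1900 bp the shares were 12.3% and 10.2% (9.33 to 11.1%). At 2000 bp or wider they were 19.5% and 24.2% (21.8 to 26.6%), with overlapping intervals. Regions called only in the old control were listed as higher in the old control in 1.41% of cases at 1000 bp and 22.5% at 2000 bp or wider.

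**Figure D4:**
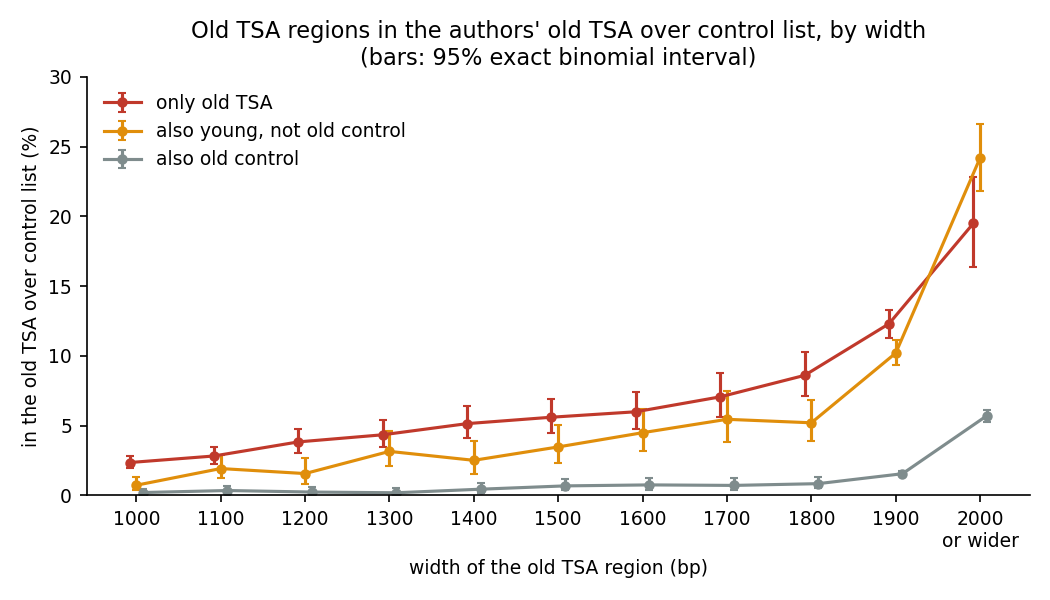
Share of old TSA regions in the authors' list of regions higher in old TSA (y axis, %) by the width of the old TSA call (x axis, bp), with 95% exact binomial intervals as bars, for members, for regions also called in a young library but not in the old control, and for regions also called in the old control. The share of the members climbs from 2.35 to 19.5%, and regions also called in the old control stay at or below 5.71%.

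Of the 10 widest members 4 were in this list, chr5:38629401-38633700, chr5:117022801-117026900, chr6:147233301-147237100 and chr15:72736701-72740500. Among all members of 2000 bp or wider the listed share was 19.5%. The next widest listed member was chr9:21149001-21152700, which spanned 3700 bp and lay 1.2 kb from a region called in both TSA libraries. The listed region on chromosome 6 lay 15.1 kb from a region called in all 4 libraries, the shortest such distance of these 5, and that at 38629401 of chromosome 5 lay 56.3 kb away, the longest.

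The medians of distance differed little between listed and other members, and the listed share showed no steady trend with distance to constitutive regions. The median distance to a region of another library was 4.2 kb for the listed and 4.5 kb for the other members, and that to a region called in all 4 libraries 58.9 and 64.7 kb. Both had a median of 7 regions of other libraries within 50 kb. More than 100 kb from any region called in all 4 libraries lay 34.8% of the listed and 39.2% of the other members. The listed share was 5.91% (5.14 to 6.76%) under 10 kb from such a region and 6.50% at 10 to 50 kb. It was 7.06% (6.28 to 7.90%) at 50 to 100 kb, 5.69% at 100 to 500 kb and 4.60% (3.74 to 5.59%) at 500 kb and over. The intervals of the nearest and the farthest class overlapped, while that of the farthest lay below those at 10 to 50 kb (5.93 to 7.10%) and 50 to 100 kb. The last 20% of the chromosomes held 27.2% of the listed members (24.9 to 29.6%), against 23.9% of all members. By chromosome, the listed share of the members ranged from 4.90% on chromosome 14 (3.70 to 6.35%) to 7.70% on chromosome 13 (6.18 to 9.46%), with overlapping intervals.

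Hardly any member overlapped the other differential lists. The list of regions higher in the old control overlapped 1 member, against 3.20% of all regions called in either old library. That member, chr15:90752201-90753500, lay 0.10 kb from a region called in both old libraries, and the listed region covered its last 200 bp. Of the regions higher in young TSA, 2 overlapped a member (5.00% of all merged autosomal regions overlapped that list). They met chr11:117051301-117052300 over 500 bp and chr15:100894801-100895800 over 200 bp, each 0.60 kb from a region with calls of young TSA and old TSA. No member overlapped the list of regions higher in the young control, which touched 0.274% of all merged autosomal regions. A member lacks calls of all the libraries in which these lists were higher, so low counts follow from the rule. These 3 regions were picked out only once their overlap was known.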

How the data were processed

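NA-seq libraries of 4 groups, 1 library each, were analysed from 8 deposited lists of regions (4 of called regions and 4 differential lists). The submitters' processing notes name Bowtie 0.12.7, an aligner of short reads, and the genome build mm9, on which all coordinates are read. How regions were called, at which threshold, and how the differential lists were tested is not stated. The lists deposited by the authors hold a chromosome, a start and an end in bp, on a 100 bp grid with a shortest region of 1000 bp, and no count or score. Starts are printed counted from 1. A differential list deposited with one library was read as holding regions higher in that library.

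Regions of the 4 library lists that touched or overlapped were merged with Python 3.11.15 and numpy 2.4.6, and intervals were computed with scipy 1.17.1. An overlap needs at least 1 bp. Distances run from edge to edge. Functions were checked against planted regions and brute-force calculation. Figures used matplotlib 3.10.9. Named regions were the 10 widest members, the 5 widest in the list of regions higher in old TSA, the 5 farthest from another library, the 5 longest runs and the 5 fullest 1 Mb windows, with ties broken by position. The members and all measures were chosen with earlier results of these data known. The alternatives were other rules for sharing, a width limit, the deposited regions as the unit, all chromosomes, each other library left out, distances between centres, other reaches and single autosomes. No gene or sequence was assigned, since the tables at hand are of another build, GRCm38.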

Additional observations from a re-analysis of the deposited data

Results flagged for a closer look

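Regions called in 1 library only were more numerous with TSA in young mice and less numerous with TSA in old mice. The log2 ratio of regions called only in the TSA library to those called only in its control was 0.74 in the young and -0.48 in the old libraries, the latter from the 23577 regions described here against 32787. The counts were flagged because the 2 ages point in opposite directions. With 1 library for every combination of age and treatment, the difference was not tested. The 4 lists differ in length, which moves with these numbers, and its part in these counts was not tested. Taken as a share of each library's merged autosomal regions, regions called in 1 library only were lower with TSA at both ages. These shares were 23.5% in young TSA against 26.0% in the young control, and 28.0% in old TSA against 35.0% in the old control.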

How the results depend on the processing

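No paired analysis was possible because each group has 1 library. Of 98 alternative values, 32 stayed inside the counting interval of the value reported (or within 1.5 times the number of members) and 66 did not. Every value of a setting is given in the same order where it moved. With a reciprocal overlap of 50% needed for sharing, members were 32.4% of old TSA regions (30.0 to 35.4% over autosomes), their median width was 1400 bp, 23.5% were 1900 bp or wider, the median distances were 3.30 kb to another library and 55.8 kb to a region called in all, 73.2% had another member within 50 kb, and they held 50.4% of the list of regions higher in old TSA. With regions up to 500 bp apart also taken as shared, the share was 26.5% (23.9% on the lowest autosome), the distance to another library 5.20 kb, the share near another member 62.9% and that of the list 38.1%. Limiting every list to its regions at or above its median width left 11936 members, which were 27.1% of old TSA regions, with a median of 1900 bp, 81.6% at 1900 bp or wider, distances of 7.70 and 116 kb, 46.4% near another member, 9.88% in the list and 34.3% of the list. With the deposited regions as the unit the share was 27.5%. With all chromosomes it was 28.3%, with distances of 4.70 and 67.6 kb and 66.1% near another member.

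Leaving a library out of the rule changed the set itself. Without the young control list, members were 30.8% (27.5 to 34.2% over autosomes), 22.2% were 1900 bp or wider, the distances were 5.00 and 23.9 kb (the latter to regions called in all remaining libraries), 70.3% lay near another member and 45.8% of the list was held. Without the young TSA list the values were 38.3% (36.3 to 42.2%), a median of 1400 bp, 26.1% at 1900 bp or wider, 5.20 and 45.2 kb, 78.2% near another member, 6.46% listed and 61.0% of the list. Without the old control list there were 35988 members, 42.4% (39.5 to 47.5%), with a median of 1400 bp, 27.0% at 1900 bp or wider, 7.20 and 50.8 kb, 80.4% near another member, 4.47% listed and 46.7% of the list. From centre to centre the distances were 6.15 and 66.3 kb. Another member lay within 10 kb for 21.0% and within 100 kb for 87.0%. Over single autosomes the median width reached 1400 bp, the distance to a region called in all 4 ranged from 44.5 to 84.3 kb and the listed share from 4.90 to 7.70%. The causes of these changes were not tested beyond what each setting does to the set. Depth is unknown, so how many members a deeper library would share cannot be given.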

Other observations

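The X chromosome, which the choice of members leaves out, held a further 730 regions called only in old TSA. They were 48.4% (45.9 to 51.0%) of the 1507 old TSA regions of that chromosome, above the highest autosome (31.4% on chromosome 14). The share called only in 1 library was also above the genome-wide autosomal value there for the old control, at 59.3% against 35.0%, for the young control, at 41.4% against 26.0%, and for young TSA, at 28.5% against 23.5%. Chromosome Y and the mitochondrial genome held none, among 14 and 2 old TSA regions. These values were looked at after the autosomal results were seen.

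Members and regions called only in the old control varied together over the 2412 windows of 1 Mb (Spearman's rho 0.504), as did members and regions called only in young TSA (0.518). The value was 0.302 for regions called only in the young control and 0.557 for regions called in all 4 libraries. Windows share base composition, cutting sites and gaps of the assembly, none of which was measured here, so these values are a description.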
